A study of Homo sapiens with 4 samples.

Results

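The genes described here are 10 regulators of alternative splicing that differ between epithelial and mesenchymal cells: ESRP1, ESRP2, RBM47, QKI, RBFOX2, MBNL1, MBNL2, MBNL3, PTBP1 and PTBP2. They were chosen by gene name from a deposited table of 58336 genes, each name matched 1 row, and all 10 were among the 18278 genes with enough counts to be tested. The lines, both human gastric cancer cells labelled wild type and profiled by RNA sequencing, were AGS, from a gastric adenocarcinoma, and HGC-27, from an undifferentiated gastric carcinoma. There were 4 libraries: AGS with 10 nM estradiol for 1 day, AGS control, HGC-27 with 10 nM estradiol for 1 day, and HGC-27 control. Their gene counts summed to 24597379 to 28734374. Each line stands for a single established culture, so differences between the lines are differences between AGS and HGC-27 and not between epithelial and mesenchymal cells at large. Nothing in the labels says that the libraries came from independent cultures, so p-values measure only the spread between these libraries, which may be technical.

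Most human genes give several transcripts, because exons can be kept in or left out of the mRNA. RNA-binding proteins decide many of these choices by sitting on short motifs in or beside an exon, and a protein can promote an exon from one side and silence it from the other. ESRP1 and ESRP2 are found in epithelia and hold the epithelial exons of transcripts such as CD44, FGFR2, ENAH and CTNND1, while QKI and RBFOX2 favour many of the exons used by mesenchymal cells, and these programmes switch during the epithelial-mesenchymal transition. The counts here are per gene and say how much of each regulator was present as RNA. They do not show which exons were used.

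The labels call both lines gastric cancer cells. By markers AGS was epithelial, and HGC-27 had mesenchymal markers and lower levels of the epithelial markers tested. Of 18 epithelial markers, 17 were tested and 17 were higher in AGS than in HGC-27 (edgeR quasi-likelihood test, adjusted p under 0.05), with a median log2 difference of 8.31. The adhesion molecule EPCAM had 494 and 523 CPM (counts scaled to library size) in the estradiol and control libraries of AGS, against 0.320 and 0.346 CPM in HGC-27. GRHL2, a transcription factor of epithelia, had 1727 and 1625 counts in the AGS libraries and 2 and 1 in HGC-27, a ratio of 1124 with a counting interval of 384 to 5451. The classical cadherin of epithelia, CDH1, was modest even in AGS, at 12.6 and 12.3 CPM against 2.72 and 1.90 CPM in HGC-27. Of 15 mesenchymal markers, 13 were tested, 11 were lower and 2 higher in AGS. The median log2 difference was -6.95, or -6.44 with the genes absent from AGS set at their bound. Beside both marker lists, 35.7% of all genes tested were higher and 41.5% lower in AGS. The intermediate filament VIM had 1.92 and 2.08 CPM in AGS against 1366 and 1356 CPM in HGC-27. ZEB1, a repressor of epithelial genes, had 1.37 and 0.962 CPM in AGS against 103 and 102.1 CPM in HGC-27, and its relative ZEB2 had 0 counts in both AGS libraries against 1366 and 1577 counts in HGC-27. KRT19, a keratin, and ST14, a membrane protease, showed the 2 largest epithelial differences, with 3 and 4 counts in all over both HGC-27 libraries. TWIST1 and the matrix protein SPARC had 0 counts in both AGS libraries and were at least 1013-fold and 3352-fold lower there, against a floor of 3 counts per library. Going the other way, TGFBI and the collagen chain COL6A1 were higher in AGS, by log2 differences of 1.98 ± 0.40 (SE) and 0.21 ± 0.06. N-cadherin (CDH2) was near 0 in both lines, with 11 and 5 counts in the AGS libraries and 0 and 4 in HGC-27.

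Sequences at annotated gene starts were searched for a form of E-box that ZEB proteins bind. Whether ZEB1 or ZEB2 acts on any member was not tested. RBM47, which is lower in HGC-27 as shown further on, is printed because it held the only match. RefSeq promoter windows of 300 bases (250 before and 50 after an annotated start, build GRCh38.p14) were matched for 6 of the 10 genes: RBM47, MBNL1, MBNL2, MBNL3, PTBP1 and PTBP2. ESRP1 was left out by rule, and ESRP2, QKI and RBFOX2 had no window. The MBNL1 windows include an overlapping pair. The motif searched was CAGGTG, read as CACCTG on the other strand. It was found in 1 of the 16 windows of these genes. Of all 35116 windows in the same table, 20.6% hold it. The window with the match belongs to an internal start of RBM47, 208 bases before that start. RBM47 lies on the minus strand of chromosome 4, from 40423267 to 40630875 in the deposited table. The windows of the outermost of its 4 annotated starts and of the start with the match are shown 5′ to 3′ on the gene's strand, with the motif in capitals and no match in the outermost window. Counts per gene do not tell which start was used, and a match of letters is not a bound site.
RBM47 outermost start, chr4:40630545-40630844, minus strand: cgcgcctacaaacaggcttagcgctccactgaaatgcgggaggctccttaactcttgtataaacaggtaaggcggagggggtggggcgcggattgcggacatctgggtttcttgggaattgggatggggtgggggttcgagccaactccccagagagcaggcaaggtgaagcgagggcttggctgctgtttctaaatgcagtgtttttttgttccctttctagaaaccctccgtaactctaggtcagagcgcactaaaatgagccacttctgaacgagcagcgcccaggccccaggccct
RBM47 internal start, chr4:40514532-40514831, minus strand: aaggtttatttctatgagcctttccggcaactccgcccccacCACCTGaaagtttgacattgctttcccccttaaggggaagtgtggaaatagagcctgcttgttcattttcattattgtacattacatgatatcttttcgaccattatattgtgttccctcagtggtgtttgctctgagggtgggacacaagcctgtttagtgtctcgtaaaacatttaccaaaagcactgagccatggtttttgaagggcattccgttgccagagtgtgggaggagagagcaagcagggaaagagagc

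The members split into genes nearly confined to a single line and genes shared by both. ESRP1, ESRP2 and RBM47 were present at over 100 CPM in AGS and at under 3 CPM in HGC-27, QKI was the reverse and was not detected in AGS, and the MBNL, PTBP and RBFOX2 genes were expressed in both. All 10 passed the test between the lines in edgeR, with 5 higher and 5 lower in AGS. Of all genes tested, 77.2% passed, 35.7% higher and 41.5% lower in AGS (78.3% at an unadjusted p under 0.05), so passing did not set the members apart. The 2 libraries of a line were alike (Pearson r of 0.997 in each line across tested genes). Of the 10 members, 7 exceeded 1 on the log2 scale, where 44.6% of all genes tested did, and 4 exceeded 6, where 13.1% did. With 1 residual degree of freedom, the SEs come mainly from the variation shared across genes. Each edgeR SE was derived from the log2 difference and its F statistic, and may be too small where a line has few counts. DESeq2 gave SEs of 0.18 for ESRP1, 0.25 for ESRP2 and 0.16 for RBM47. Its SEs were smaller than those of edgeR only for RBFOX2 and MBNL1, at 0.046 and 0.043.

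**Figure D1:**
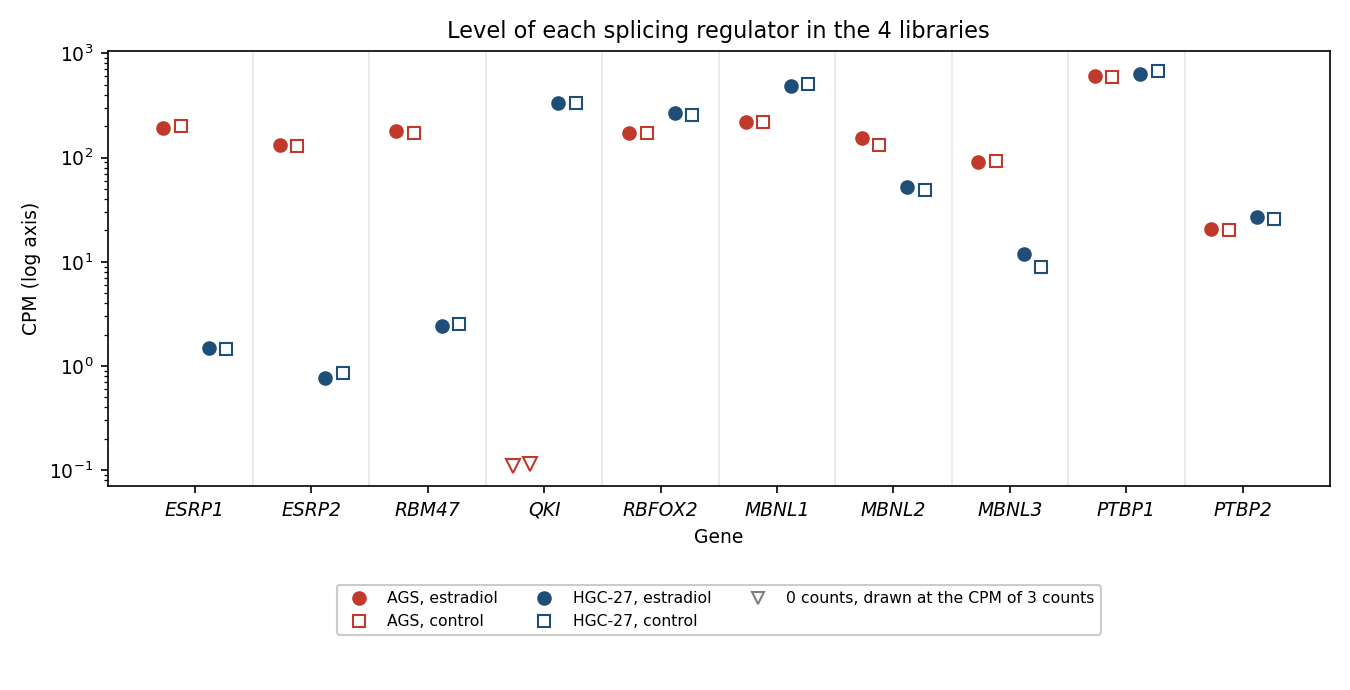
CPM of each of the 10 splicing regulators in the 4 libraries, on a log axis, with AGS in red and HGC-27 in blue, estradiol as filled circles and control as open squares. ESRP1, ESRP2 and RBM47 lie above 100 CPM in AGS and below 3 CPM in HGC-27, and QKI has 0 counts in AGS (open triangles, drawn at the CPM of 3 counts).

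ESRP1, the founding epithelial splicing regulator (ENSG00000104413, chromosome 8, 94641074 to 94707466), had 5290 and 5214 counts in the estradiol and control libraries of AGS, against 37 and 42 in HGC-27. These were 191 and 201 CPM in AGS, against 1.48 and 1.45 CPM in HGC-27. The gene was about 134-fold higher in AGS, a log2 difference of 7.06 ± 0.10 (SE, n = 2 libraries per line, edgeR adjusted p = 1.47e-220). Both HGC-27 libraries lay above the 0.120 CPM or less that 3 counts are worth, so the transcript was scarce there and not absent. In bulk RNA, a few cells with much ESRP1 and many cells with little cannot be told apart.

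Its paralog ESRP2, which shares most of the known targets of ESRP1 (ENSG00000103067, chromosome 16, 68229111 to 68238102), had 3684 and 3387 counts in the AGS libraries, against 19 and 25 in HGC-27. In CPM it stood at 133 and 130 in AGS, against 0.760 and 0.864 in HGC-27, with no overlap between the lines. The log2 difference was 7.33 ± 0.12 (adjusted p = 9.44e-201), a 161-fold higher level in AGS. The 3' end of ESRP2 overlaps the end of NFATC3 on the other strand, and the strand setting of the counting is not stated in the labels. NFATC3 itself had 1118 and 968 counts in the AGS libraries and 1074 and 1207 in HGC-27, and did not pass the test between the lines (log2 difference -0.13 ± 0.08, adjusted p = 0.139).

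RBM47, an RNA-binding protein of epithelia that acts in splicing and in mRNA stability (ENSG00000163694), had 4970 and 4424 counts in the AGS libraries, against 60 and 73 in HGC-27. This was 180 and 170 CPM in AGS, against 2.40 and 2.52 CPM in HGC-27. Its log2 difference was 6.14 ± 0.10 (adjusted p = 4.07e-209), a 70.7-fold higher level in AGS. RBM47 was thus the least depleted of the 3 epithelial regulators in HGC-27 by CPM. Its paralogs were hardly seen: A1CF, the partner of APOBEC1 in mRNA editing, had 0 counts in 3 libraries and 1 in the HGC-27 control, and RBM46 had 0 in all 4.

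QKI, a STAR-family protein that binds pre-mRNA and also promotes circular RNAs during the epithelial-mesenchymal transition (ENSG00000112531, chromosome 6, 163414000 to 163578596), had 0 counts in both AGS libraries. HGC-27 held 8316 and 9724 counts, or 333 and 336 CPM. A count of 0 allows up to 0.109 and 0.115 CPM in the AGS libraries (3 counts each), so QKI was at least 2882-fold lower in AGS. The fitted value depends on the prior count and is not used here. The adjusted p was 8.76e-254 in edgeR, 0.0002755 in DESeq2 and 1.26e-05 in limma-voom. QKI had enough counts to be tested through HGC-27 alone, so these p-values add no support beyond the counts themselves. Absence of this kind was not confined to QKI. Of the 18278 genes tested, 1246 had 0 counts in both AGS libraries and 384 in both HGC-27 libraries. Such genes were tested only because of their counts in the other line. Ranked by their level in HGC-27, QKI was the sixth of those 1246 genes, behind POSTN, TRPS1, CDH6, SPARC and COL11A1, which were named after their values were seen.

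The genes around QKI were looked at after its 0 counts had been seen. CAHM, a long noncoding RNA on the opposite strand whose start lies head to head with QKI, 39 bases apart, had 0 counts in both AGS libraries, against 15 and 18 in HGC-27. Of 45 other protein-coding genes that start within 5 Mb of QKI, 20 had at least 10 counts in both AGS libraries, 20 in both HGC-27 libraries and 19 in both lines, and 15 had 0 counts in all 4 libraries. The nearest detected in AGS on the upstream side was AGPAT4, at -2.28 Mb, with 105 and 107 counts in the AGS libraries against 396 and 386 in HGC-27. On the other side the nearest was SFT2D1, 2.91 Mb downstream, with 1137 and 1053 counts in the AGS libraries against 628 and 621 in HGC-27. Between them no protein-coding gene reached 10 counts in the AGS libraries, and besides QKI only PDE10A did so in HGC-27, with 1 and 3 counts in the AGS libraries against 22 and 17.

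**Figure D2:**
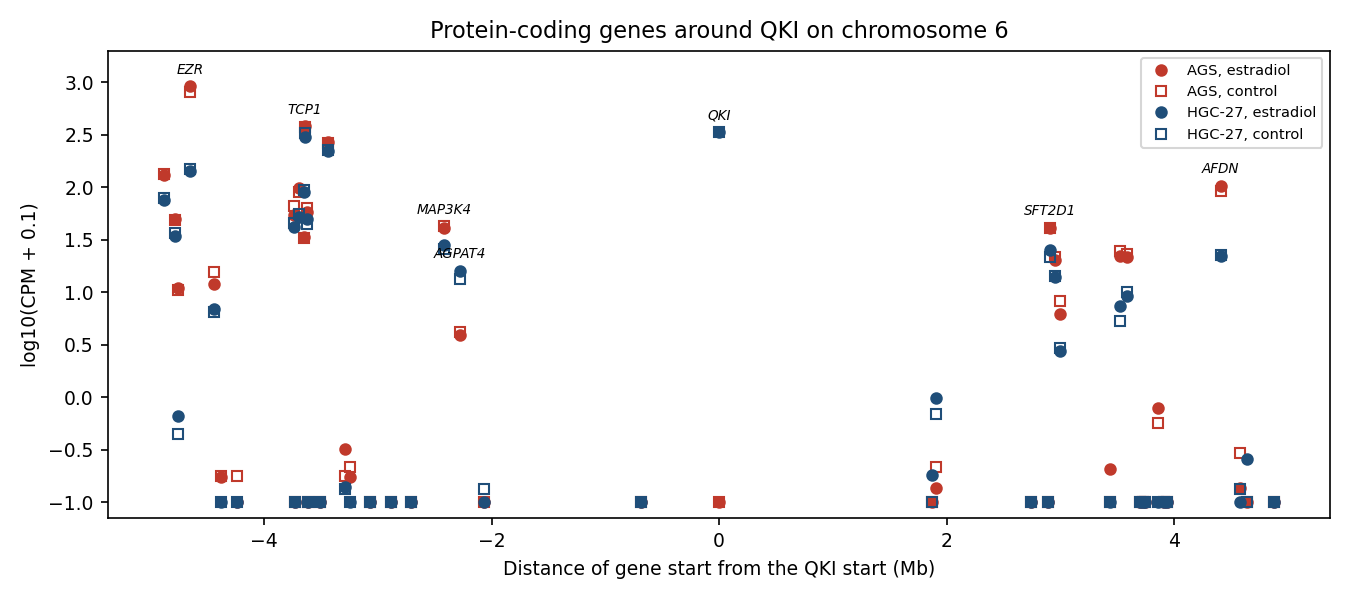
Level of each protein-coding gene that starts within 5 Mb of QKI, as log10 of CPM plus 0.1, against the distance of its start from the QKI start, in the 4 libraries (AGS red, HGC-27 blue, estradiol filled, control open; -1 stands for 0 counts). QKI is at -1 in AGS and at 333 and 336 CPM in HGC-27, while MAP3K4 and AGPAT4 upstream and SFT2D1 and AFDN downstream are detected in both lines.

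RBFOX2, the RBFOX protein found outside neurons and muscle as well as in them (ENSG00000100320, chromosome 22, 35738736 to 36028425), was abundant in both lines. It had 4737 and 4500 counts in the AGS libraries, against 6620 and 7428 in HGC-27. These correspond to 171 and 173 CPM in AGS and 265 and 257 CPM in HGC-27, so the lines did not overlap but differed by far less than for QKI. The log2 difference was -0.60 ± 0.05 (adjusted p = 2.95e-25), a 1.51-fold lower level in AGS. Set per transcript length as TPM (counts per gene length, scaled to a common sum), RBFOX2 made up 99.7% and 99.8% of the family in AGS and 99.6% in both HGC-27 libraries. The neuronal member RBFOX3 had 15 and 9 counts in the AGS libraries and 25 and 26 in HGC-27, and RBFOX1 had 1 in each AGS library and 3 and 2 in HGC-27.

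The muscleblind proteins MBNL1, MBNL2 and MBNL3 bind overlapping sites and in general favour the exons of differentiated cells. In these lines they differed in opposite directions. MBNL1 (ENSG00000152601, chromosome 3, 152243828 to 152465780) had 6036 and 5716 counts in the AGS libraries, against 12270 and 14801 in HGC-27, or 218 and 220 CPM against 491 and 512 CPM. It was 2.29-fold lower in AGS (log2 difference -1.19 ± 0.05, adjusted p = 1.10e-74). The antisense gene MBNL1-AS1 overlaps it and differed in the same direction, with 14 and 16 counts in the AGS libraries against 309 and 367 in HGC-27. These are few beside those of MBNL1, but without strand the reads of both cannot be told apart.

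MBNL2 (ENSG00000139793, chromosome 13, 97221434 to 97394120) went the other way, with 4257 and 3447 counts in the AGS libraries against 1297 and 1420 in HGC-27. Its CPM were 154 and 133 in AGS and 51.9 and 49.1 in HGC-27, a 2.83-fold higher level in AGS (log2 difference 1.5 ± 0.06, adjusted p = 2.04e-78). MBNL3 (ENSG00000076770, chromosome X, 132369317 to 132489968), the member least used in adult tissues, had 2481 and 2417 counts in the AGS libraries, against 295 and 256 in HGC-27. At 89.8 and 93.0 CPM in AGS against 11.8 and 8.85 CPM in HGC-27, it was 8.91-fold higher in AGS (log2 difference 3.16 ± 0.09, adjusted p = 3.02e-128). The antisense gene RAP2C-AS1 overlaps MBNL3, with 17 and 20 counts in the AGS libraries and 29 and 30 in HGC-27. Here too, without strand the reads of both cannot be told apart.

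Because MBNL1 fell and the other members rose in AGS, the family's sum per length was close in the 2 lines while its makeup was not. The summed TPM of the 3 genes was 203 and 190 in AGS and 206 and 207 in HGC-27. MBNL1 held 36.1% and 38.9% of it in AGS, against 81.0% and 82.7% in HGC-27. MBNL2 held 51.8% and 47.7% in AGS, against 17.4% and 16.1% in HGC-27, and was the leading member in AGS. MBNL3 held 12.1% and 13.45% in AGS, against 1.59% and 1.17% in HGC-27. These shares use the gene lengths of the deposited table, and on CPM, without lengths, MBNL1 led in both lines with mean shares of 48.3% in AGS and 89.2% in HGC-27. Mean CPM of MBNL1, MBNL2 and MBNL3 were 219, 143 and 91.4 in AGS and 501, 50.5 and 10.3 in HGC-27. Without lengths, then, the family's sum was higher in HGC-27.

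**Figure D3:**
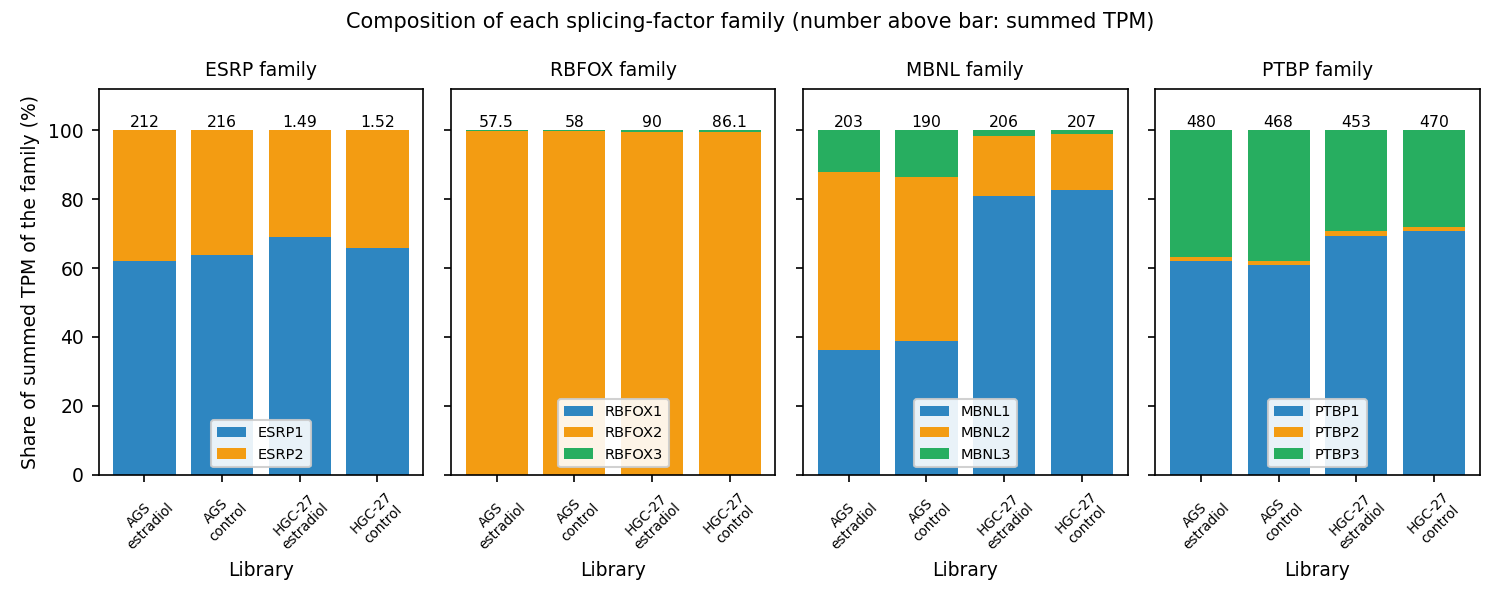
Share of each family's summed TPM held by each of its genes, in percent, for the ESRP, RBFOX, MBNL and PTBP families in the 4 libraries, with the summed TPM above each bar. MBNL1 holds 36.1% and 38.9% of its family in AGS against 81.0% and 82.7% in HGC-27 at similar sums, while the ESRP sum is 212 and 216 TPM in AGS against 1.49 and 1.52 TPM in HGC-27.

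The polypyrimidine tract-binding proteins repress exons by binding pyrimidine-rich stretches. PTBP1, the form of most dividing cells (ENSG00000011304, chromosome 19, 797075 to 812327), was the most abundant member in both lines. It had 16916 and 15265 counts in the AGS libraries, against 15957 and 19768 in HGC-27. In CPM it stood at 612 and 587 in AGS, against 638 and 683 in HGC-27, so the values did not overlap but came close. The log2 difference of -0.14 ± 0.05 passed in edgeR (adjusted p = 0.00748). It did not pass in DESeq2 (-0.12, adjusted p = 0.117), nor without the AGS control library (-0.10, adjusted p = 0.0960) or without the HGC-27 control library (-0.10, adjusted p = 0.0674). PTBP1 was the only member to lose its call under any of the alternatives run.

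PTBP2, the neuronal form, whose own transcript is kept down by PTBP1 (ENSG00000117569, chromosome 1, 96721665 to 96823738), was the scarcer gene by far. It had 567 and 528 counts in the AGS libraries, against 675 and 746 in HGC-27, or 20.5 and 20.3 CPM against 27.0 and 25.8 CPM. The log2 difference was -0.37 ± 0.10 (adjusted p = 0.000421), 1.29-fold lower in AGS. Per length, PTBP2 made up 1.11% and 1.12% of the PTBP family in AGS and 1.56% and 1.42% in HGC-27. PTBP3, the third member of the family and not among the 10, had 433 and 437 CPM in AGS against 321 and 323 CPM in HGC-27 (log2 difference 0.43 ± 0.05, adjusted p = 6.50e-16). Its share of the family was 36.8% and 37.9% in AGS and 29.1% and 27.9% in HGC-27, and the family's sum was 480 and 468 TPM in AGS and 453 and 470 TPM in HGC-27.

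Ordered by TPM, PTBP1 stood first in both lines, with 298 and 285 TPM in the estradiol and control libraries of AGS and 314 and 332 TPM in those of HGC-27. In AGS it was followed by ESRP1 (132 and 138 TPM), MBNL2 (105 and 90.4), ESRP2 (80.3 and 78.4), MBNL1 (73.3 and 73.7), RBM47 (70.5 and 66.6), RBFOX2 (57.3 and 57.8), MBNL3 (24.7 and 25.5) and PTBP2 (5.31 and 5.25), with QKI at 0. The values of neighbours in that order did not overlap between libraries. The order rests on the deposited gene lengths and changes without them. By CPM, MBNL1 (218 and 220) stood above ESRP1 (191 and 201) in AGS. In HGC-27, QKI (333 and 336 CPM) stood above RBFOX2 (265 and 257 CPM). The counting intervals of MBNL1 and RBM47 overlapped in the AGS estradiol library (71.4 to 75.1 and 68.6 to 72.5 TPM). In the AGS control library they did not (71.8 to 75.6 and 64.7 to 68.6 TPM). In HGC-27 the order after PTBP1 was MBNL1 (166.5 and 171 TPM), RBFOX2 (89.6 and 85.8), QKI (64.9 and 64.7), MBNL2 (35.8 and 33.5), PTBP2 (7.07 and 6.67), MBNL3 (3.28 and 2.43), ESRP1 (1.03 and 0.996), RBM47 (0.952 and 0.988) and ESRP2 (0.463 and 0.520). There ESRP1 and RBM47 could not be ordered, since the counting interval of ESRP1 in the control library, 0.718 to 1.35 TPM, took in that of RBM47, 0.774 to 1.24 TPM. In HGC-27 all 3 epithelial regulators lay below PTBP2 and MBNL3, while in AGS the 3 epithelial regulators ranked among the first 6 of the 10 by TPM. By CPM, ESRP2 (133 and 130) stood below RBFOX2 (171 and 173) in AGS.

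The broadly expressed splicing factors are given for comparison. Of 14 SR proteins and their TRA2 partners, activators of exon inclusion, 8 were higher and 4 lower in AGS, with a median log2 difference of 0.16 and a median size of 0.30. Of 20 hnRNP proteins, 8 were higher and 9 lower, with a median of -0.02 and a median size of 0.30. Over all 18278 genes tested, 35.7% were higher and 41.5% lower in AGS, the median was -0.10 and the median size 0.89. Named by rule, SRSF8 (log2 difference 1.11 ± 0.08) and SRSF5 (0.53 ± 0.05) were the highest SR genes in AGS, and SRSF7 (-0.33 ± 0.05) and TRA2A (-0.32 ± 0.06) the lowest at 1 CPM or more. HNRNPUL1 (1.43 ± 0.05) and HNRNPUL2 (0.88 ± 0.08) led the hnRNP genes higher in AGS, and HNRNPA1 (-0.72 ± 0.05) and HNRNPAB (-0.52 ± 0.05) those lower. HNRNPA1 has many processed copies in the genome, so its counts are uncertain.

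Of 25 family relatives and other tissue-linked splicing factors, 15 were tested, 6 were higher and 7 lower in AGS, and the median log2 difference was -1.10. Among all genes tested, 35.7% were higher and 41.5% lower. The RNA-binding protein RBM38 (log2 difference 1.55 ± 0.08) and the tumour suppressor RBM5 (0.87 ± 0.06) were the highest in AGS. Among those lower, SRRM3 and NOVA1, splicing factors of neurons, had 0 counts in both AGS libraries. SRRM3 had 633 and 652 counts in HGC-27 and was at least 195-fold lower in AGS, and NOVA1 had 367 and 393 and was at least 118-fold lower. SRRM4, the activator of neuronal microexons, NOVA2 and KHDRBS2, named after their values were seen, also had 0 counts in the AGS libraries, against 216 and 213, 69 and 99, and 85 and 84 in HGC-27. The heart and muscle factor RBM20, likewise named afterwards, had 6 and 0 counts in the AGS libraries against 1023 and 1119 in HGC-27. No gene of these lists, nor of the target transcripts or markers, passed the test for estradiol in edgeR.

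**Figure D4:**
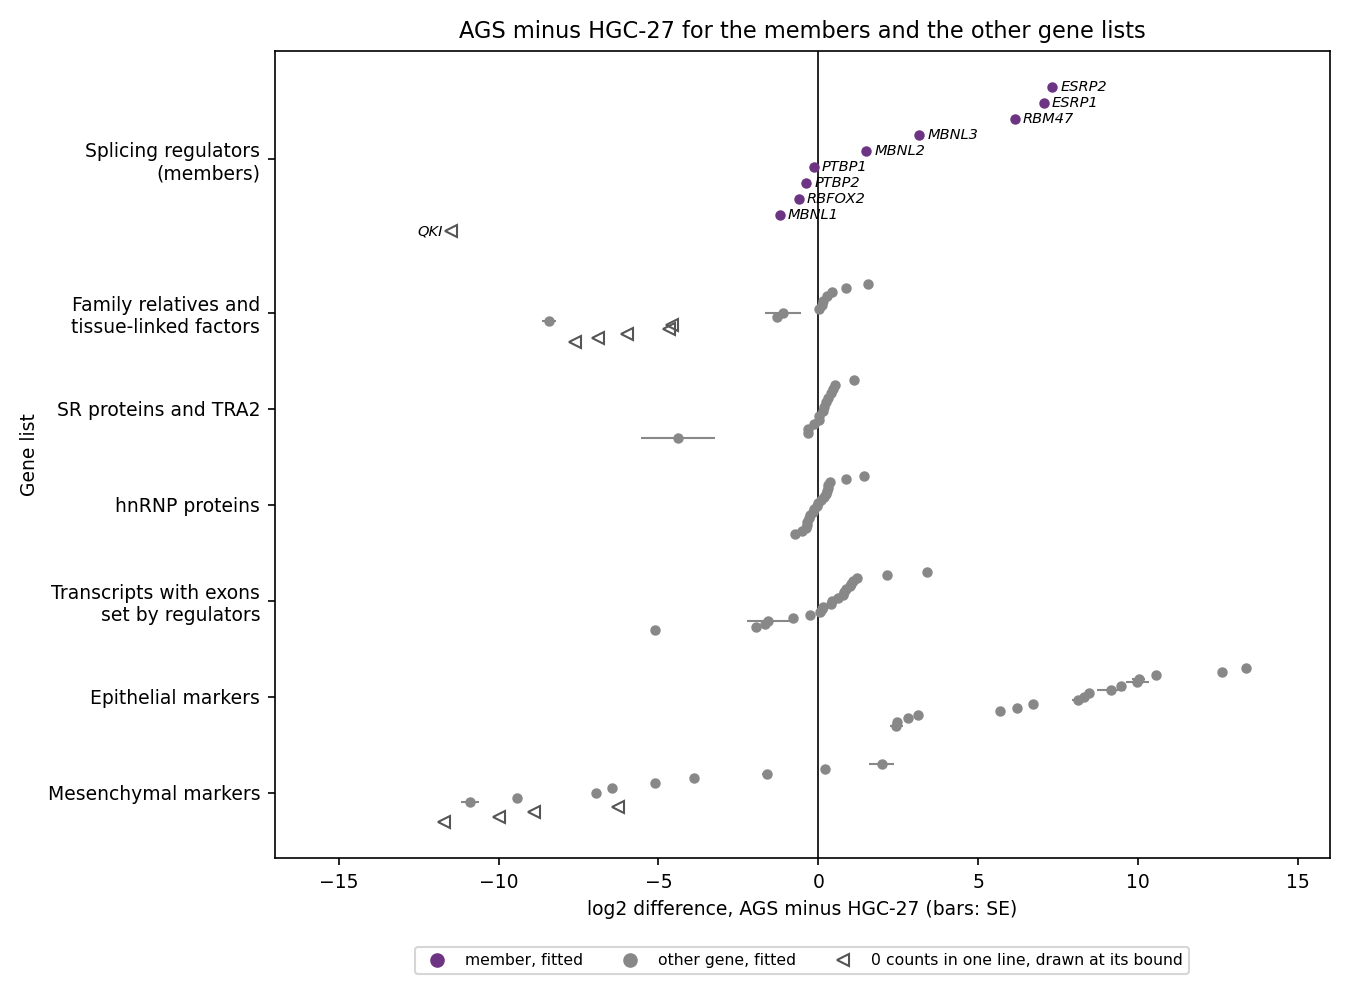
Log2 difference of AGS minus HGC-27 for the 10 members (purple, with names) and for the tested genes of 6 other lists (grey), with SE bars. Open triangles mark genes with 0 counts in AGS, drawn at the bound that 3 counts per library allow, such as QKI at -11.5. The median size is 0.30 in the SR list and 0.30 in the hnRNP list, with HNRNPUL1 at 1.43 and the scarce SRSF12 at -4.39 ± 1.15 farther out, while ESRP1, ESRP2 and RBM47 lie between 6 and 8.

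Transcripts whose exons are textbook targets of these regulators were present in both lines in most cases. Of 21 such genes, 14 were higher and 6 lower in AGS, with a median log2 difference of 0.42. Over all genes tested 35.7% were higher and 41.5% lower, with a median of -0.10. The laminin receptor subunit ITGA6 had 561 and 564 CPM in AGS against 53.9 and 51.5 CPM in HGC-27 (3.42 ± 0.06). Fibronectin, FN1, had 1.88 and 1.77 CPM in AGS against 69.2 and 57.8 CPM in HGC-27 (-5.12 ± 0.13), and the receptor kinase FGFR3 23.2 and 23.7 CPM against 87.4 and 92.6 CPM (-1.94 ± 0.07). Because each of these genes makes more than a single isoform, their gene counts are the pool on which the regulators act and not a measure of their action.

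The remaining question was whether estradiol, the main oestrogen, moved any of these regulators within a day. Over both lines, with the line as a block, 0 of the 10 members passed the test in edgeR, DESeq2 or limma-voom. Of all genes tested, 0.153% passed in edgeR, 28 in number, with 0.115% higher and 0.0383% lower. At an unadjusted p under 0.05, which 3.24% of all genes reached in edgeR, there was 1 member in edgeR, 0 in DESeq2 and 1 in limma-voom. Fitted log2 changes of the members ran from -0.06 for ESRP1 to 0.16 for MBNL2, with SEs of 0.05 to 0.10. MBNL2 was the member with the small unadjusted p, at a log2 change of 0.16 ± 0.06 (edgeR adjusted p = 0.99994). It had 154 CPM with estradiol and 133 CPM in control in AGS, and 51.9 and 49.1 CPM in HGC-27, higher with estradiol in both lines. The log2 ratio in HGC-27 was 0.08, with a counting interval of -0.03 to 0.19 that took in 0. With either AGS library left out, the fitted change of 0.08 is this same HGC-27 ratio and not a second check. A p that misses the threshold does not show that the other members stayed the same.

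Within a line there is 1 library per condition and no test, so ratios are given with 95% intervals that cover counting error only. In AGS, 9 members had a mean count of at least 100, and the interval lay above 0 for 3 and below 0 for 1. For all 10917 genes with such counts in AGS, 14.2% lay above 0 and 15.5% below, 29.8% in all. MBNL2 had the highest ratio in AGS, at 0.22 on the log2 scale (interval 0.15 to 0.28), followed by RBM47 at 0.08 (0.02 to 0.14) and PTBP1 at 0.06 (0.03 to 0.09), and ESRP1 stood at -0.07 (-0.12 to -0.01). In HGC-27, 7 members had such counts, with 1 interval above 0 and 2 below, against 10.8% and 14.6% of 11663 genes, 25.4% in all. MBNL3 stood at 0.41 (0.17 to 0.66), from 295 counts with estradiol and 256 in control, MBNL1 at -0.06 (-0.09 to -0.03) and PTBP1 at -0.10 (-0.13 to -0.07). QKI, with 333 and 336 CPM, stood at -0.01 (-0.06 to 0.03), and RBFOX2 at 0.04 (-0.003 to 0.09). The epithelial regulators had too few counts in HGC-27 for a narrow interval: ESRP1 stood at 0.03 (-0.65 to 0.70), ESRP2 at -0.18 (-1.13 to 0.73) and RBM47 at -0.07 (-0.59 to 0.44).

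**Figure D5:**
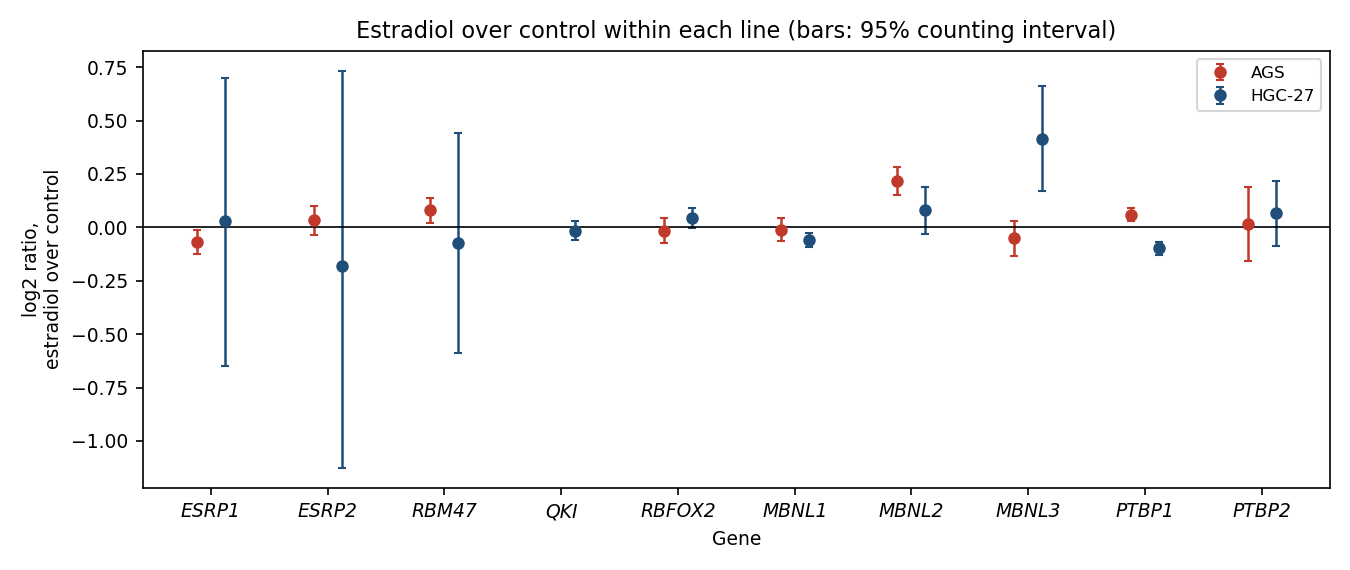
Log2 ratio of estradiol over control for each member within AGS (red) and HGC-27 (blue), with 95% counting intervals; QKI has 0 counts in the AGS libraries and no AGS point. Ratios run from -0.18 to 0.41, with wide intervals for ESRP1, ESRP2 and RBM47 in HGC-27, where counts are low.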

How the data were processed

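Per the labels' protocols, TRIzol was used for the extraction and an NEB procedure for library construction. The submitters' processing notes name HISAT2 and featureCounts; their versions and the strand setting are not given in the sources used here. What the authors deposited are raw gene counts, without normalization, for 4 libraries. The notes name the build hg18, but the coordinates of all 10 members equal those of GENCODE release 29 on GRCh38, so coordinates are GRCh38.

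The 18278 genes that passed filterByExpr were tested with edgeR 4.0.16 under R 4.3.3 (TMM, quasi-likelihood F-test, cell line plus treatment, Benjamini-Hochberg over all tested genes, threshold 0.05), once for AGS minus HGC-27 and once for estradiol minus control. Libraries of the same line were paired through the line term, since they share a cell line. CPM use TMM-scaled library sizes and TPM the deposited gene lengths; 3 counts are worth 0.104 to 0.120 CPM. Within a line, log2 ratios have a prior of 0.5 counts and exact conditional binomial intervals. DESeq2 1.42.0 and limma-voom (limma 3.58.1) were alternatives. Without molecular identifiers, PCR copies cannot be told from separate molecules, so intervals and floors cover counting error only. The fitting step was also run on data simulated with the spread estimated from these same libraries, which cannot show how far independent cultures vary.

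The members and lists were chosen with earlier results of these data known. Named were all members, the 2 highest and 2 lowest called genes of each list at a mean CPM of at least 1, any list gene called with estradiol (0 were), and 6 fixed markers (CDH1, EPCAM, GRHL2, VIM, ZEB1, ZEB2), and for ESRP1 and QKI the 3 protein-coding genes nearest in log2(CPM + 1) over the 4 libraries, at a mean CPM of at least 5. Among the genes this rule names, 2 are not reported here.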

Additional observations from a re-analysis of the deposited data

Results flagged for a closer look

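For 6 members the log2 ratio of estradiol over control had opposite signs in the lines, with 1 library per condition in each, so that the difference was not tested. QKI, with 0 counts in AGS, had no ratio there. The share of all genes with opposite signs was not counted, so whether 6 is unusual cannot be said. For ESRP1, ESRP2 and RBM47 the HGC-27 ratio rests on few counts. The AGS ratio minus the HGC-27 ratio was -0.0957 for ESRP1, 0.213 for ESRP2, 0.15 for RBM47, -0.0596 for RBFOX2, -0.466 for MBNL3 and 0.157 for PTBP1. PTBP1 was the one member of these whose counting intervals excluded 0 in both lines, at 0.06 in AGS and -0.10 in HGC-27. MBNL3 stood at -0.05 in AGS (interval -0.13 to 0.03) and at 0.41 in HGC-27 (0.17 to 0.66). For the other 4 at least 1 of the intervals took in 0.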

How the results depend on the processing

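Between the lines, all 10 members kept their direction under the 12 alternatives run for each, and PTBP1 alone lost its call, with log2 differences from -0.20 to -0.10. The size of a p-value depended on the tool: the adjusted p of ESRP1 was 1.47e-220 in edgeR and 1.31e-05 in limma-voom. Leaving out each library in turn, with the treatment term dropped, gave 13189 to 14408 genes called, 6220 to 6567 higher and 6947 to 7841 lower in AGS, and 9 to 10 of the members. The fitted QKI value ran from -16.2 without the HGC-27 estradiol library to -14.1 in limma-voom, and with 0 counts in AGS it is no estimate of size. For estradiol, the 28 calls (21 higher, 7 lower) became 13 (9 and 4) with library sizes alone and 17 (13 and 4) with robust empirical Bayes. Among protein-coding genes alone there were 30 (26 higher and 4 lower). There were 0 in either direction in DESeq2 (169 under an unadjusted p of 0.05) and in limma-voom (490), and 0 without the replicate block, that is with the line left out of the paired model (2 under 0.05). None of these fits called a member, and without the replicate block the change of MBNL3 was -0.003986 against 0.09 in the paired fit. The causes of these shifts were not tested. With a library left out and the block kept, no residual degree of freedom remains, and the estradiol change is the ratio of the line left whole, from -0.05 to 0.41 for MBNL3. Shares of CPM in place of TPM moved the MBNL2 share to 31.6% in AGS and 8.99% in HGC-27. Depth limits what can be said of ESRP1, ESRP2 and RBM47 in HGC-27 and of QKI in AGS.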

Other observations

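The genes whose log2(CPM + 1) over the 4 libraries lay nearest to that of ESRP1 were the mucin MUC13 (distance 0.302), the transcription factor SOX9 (0.363) and the signalling kinase IRAK1 (0.535). MUC13 had 5810 and 5761 counts in the estradiol and control libraries of AGS, against 28 and 44 in HGC-27. SOX9 had 5896 and 5515 counts in the AGS libraries, against 40 and 59 in HGC-27. IRAK1 had 5125 and 4595 counts in the AGS libraries, against 19 and 46 in HGC-27. Nearest to QKI were the translation factor EEF1A2 (0.112), the proteoglycan BGN (0.132) and EFHD1 (0.137). EEF1A2 had 1 and 0 counts in the AGS libraries, against 8888 and 9914 in HGC-27, and BGN 0 in AGS against 8154 and 8888 in HGC-27. This likeness is over 4 libraries of 2 lines.

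Of 12 markers of leukocytes, endothelium and neurons, 5 were tested, 1 higher and 3 lower in AGS, where 35.7% and 41.5% of all genes tested were. The summed level of the 12 was 7.67 and 7.39 CPM in AGS and 14.4 and 13.2 CPM in HGC-27. CD3E and KDR were at 0 in all libraries, and PECAM1 and CDH5 at 0 in HGC-27. MAP2, a microtubule protein of neurons, had 186 and 152 counts in the AGS libraries against 0 in both HGC-27 libraries. The neurofilament NEFL had 4 and 1 counts in the AGS libraries against 170 and 188 in HGC-27, and SNAP25 had 0 in AGS against 49 and 40. SYP had 9 and 29 counts in the AGS libraries against 11 and 13, and did not pass the test between the lines (edgeR adjusted p = 0.399). GAP43 had 0 in both AGS libraries against 1 and 0 in HGC-27. SNAP25, SYP and GAP43 were named after their values were seen. SRRM3, SRRM4 and NOVA1 differed in the same direction as NEFL and SNAP25 and in the opposite direction to MAP2, and the part of other cell types in those values was not tested.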
